A study of Mus musculus with 2 samples.

Results

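The 62 genes described here are those whose symbol in the deposited table begins with Eif or Eef followed by a digit, the naming of the eukaryotic initiation factors (eIF) and elongation factors (eEF) of translation, with Eif2s3y left out. They were taken from 22556 genes by name alone, and the rule uses no measured value. Of the 62 genes, 42 encode initiation factors, 8 encode elongation factors, and 12 encode regulators or relatives whose symbols fit the rule, such as the kinases Eif2ak1 to Eif2ak4. They lie on 19 chromosomes, 60 on autosomes and 2, Eif1ax and Eif2s3x, on the X chromosome. The samples are messenger RNA of iXist-ChrX-Dom, an embryonic stem cell line (mESC) of female mice from a Dom/129S x Cast cross, in which a TetOn promoter stands in place of the endogenous Xist promoter on the Dom/129S allele. The cells were untreated, so Xist had not been induced (0 h), and they were grown in serum with LIF on inactivated mouse fibroblasts that were removed by pre-plating before experiments. The series holds 1 group of 2 replicates of this 1 line, and nothing in the labels says whether they were separate cultures. There is therefore no contrast between conditions, and each test below compares 2 libraries and may measure technical spread.

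Translation of a messenger RNA begins when eIF2 brings the initiator tRNA to the small ribosomal subunit together with eIF1, eIF1A, eIF3 and eIF5. The messenger RNA is recruited through its cap by eIF4F, which joins the cap-binding protein eIF4E, the scaffold eIF4G and the helicase eIF4A, and eIF5B then joins the large subunit. During elongation, eEF1A delivers aminoacyl-tRNAs, the eEF1B subunits recharge it with GTP, eEF2 moves the ribosome along and eIF5A relieves stalls. The guanine nucleotide exchange factor eIF2B recharges eIF2, and phosphorylation of eIF2 by the 4 kinases blocks that step in the integrated stress response. These genes are needed in nearly every cell, and rapidly dividing stem cells depend on the pathway to grow.

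The libraries held 23716499 and 20275749 fragments assigned to genes. Between genes, levels are given as transcripts per 1000000 (TPM) with the union of annotated exons as the length of each gene (exonic TPM). Counts per 1000000 (CPM) are used where a gene is compared with itself between libraries. Exonic TPM adjusts for length only. The counts were made over whole transcript spans, so any fragments from introns are included. Levels also moved with GC content, as given below. CPM between genes appears only as an alternative scale without a length. Of 10 embryonic stem cell markers, 9 reached 10 TPM, and their summed exonic TPM was 5343 and 4316 in replicates 1 and 2. The exception, Sox2, had no count in either library, and the table holds Sox2ot on the same strand across its position. The characteristics field reads mESC to NPC, but the 6 neural precursor markers summed to 5.03 and 4.23 exonic TPM with 3 of them at 0, and none passed 3.80 TPM in the mean. The 10 fibroblast markers summed to 6.15 and 3.46 exonic TPM with 1 at 0, and the highest, Fbn1, stood at a mean of 2.68 TPM.

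Translation factor genes were abundant as a set. Of all counts they took 2.71% in replicate 1 and 2.24% in replicate 2, with 95% Wilson intervals of 2.71 to 2.72% and 2.23 to 2.24%, and the mean was 2.47% ± 0.337 (SD, n = 2). The intervals did not overlap. Intervals and limits here describe counting error alone, since the fragments carried no molecular identifiers and may be copies of one another. In these bulk samples, fewer cells that express a gene and less RNA per cell cannot be told apart. The share rested on few genes. Eef1a1, Eif4a2, Eif5, Eif2s1 and Eif4g2 together held 62.7% and 64.6% of the counts of the set, and without Eef1a1 the set took 1.85% and 1.62% of all counts.

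The median level of the 62 genes was 58.0 exonic TPM, 75.6 in replicate 1 and 40.4 in replicate 2, against 1.84 TPM over the 22137 genes with an exonic length and 18.4 TPM over the 12245 genes of at least 1 TPM. At least 1 TPM was reached by 58 of the 62 genes (93.5%, against 54.3% of all genes) and at least 100 TPM by 24 (38.7%, against 10.0%). The 10 highest were Eef1a1, Eif4a2, Eif3e, Eif2s1, Eif5, Eif3m, Eif2s2, Eef1b2, Eif1a and Eif1ax, and Eef1a1 ranked 1 of all genes in the table. At the other end, 4 genes had 10 or fewer counts in each replicate. Eif4e1b had no count, which allows up to 3 counts, or 0.126 CPM in replicate 1 and 0.148 CPM in replicate 2, and Eef1a2 had 3 and 1 counts. Eif3j1 and Eif3j2 also had no count, but their entries overlap, so no limit is given for them. Across the 59 genes with counts, ordered by mean level, the ranges of the replicates overlapped for 50 of 58 neighbouring pairs and were apart for 8, so that only the top of the order (Eef1a1 above Eif4a2 above Eif3e above Eif2s1) and a few later steps were resolved by these replicates.

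**Figure D1:**
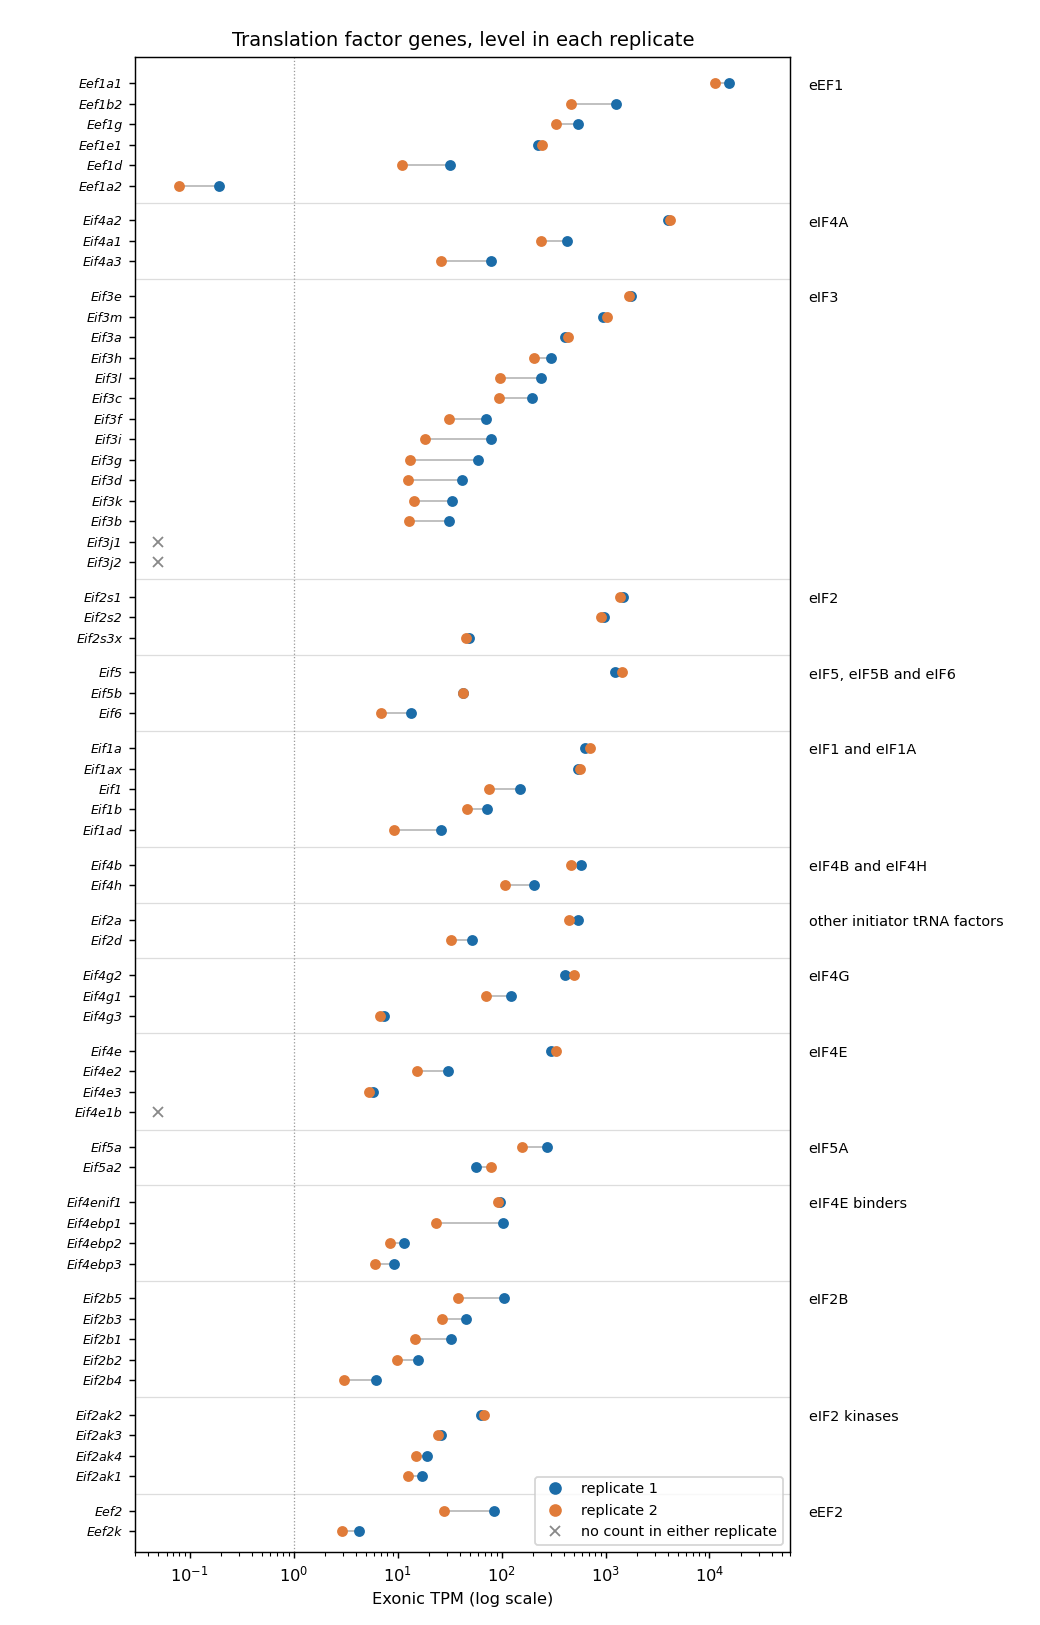
Exonic TPM (log axis) of each of the 62 translation factor genes in replicate 1 (blue) and replicate 2 (orange), grouped by factor, with a dotted line at 1 TPM; crosses at the left edge are genes with no count and mark no level. Eef1a1 stands apart at 15247 and 11423 TPM, and of 56 genes counted 50 times or more per library, 48 had a lower CPM in replicate 2, as did 6312 of the 9736 genes of the same filter.

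Among elongation factors, the aminoacyl-tRNA carrier eEF1A stood far above its partners. Eef1a1 (chromosome 9, 78478453 to 78481724, mm10, minus strand) had 15247 and 11423 exonic TPM (13335 ± 2704, SD, n = 2), and Eef1a1 alone held 0.867% and 0.611% of all counts. Its tissue-restricted paralogue Eef1a2, known from neurons and muscle, had 3 and 1 counts. Per exonic length Eef1a1 was 79597 times Eef1a2 in replicate 1 (95% exact counting interval 27236 to 385977) and 143874 times in replicate 2 (25822 to 5682758). Both libraries thus placed nearly all eEF1A counts on Eef1a1. The 2 genes are alike over the stretch shown here, where a short read can tell them apart only at the differing bases. However, no 50-base word of the longest Eef1a2 transcript occurs in transcripts of other loci, those of Eef1a1 included. Below are 60 coding bases from exon 3 of each gene in GENCODE M21 (GRCm38), 5′ to 3′ on the minus strand, which both genes use, with the 5 differing bases in capitals; the coordinates are chr9:78480244-78480303 and chr2:181153654-181153713.
Eef1a1: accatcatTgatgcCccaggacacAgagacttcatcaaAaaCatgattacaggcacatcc
Eef1a2: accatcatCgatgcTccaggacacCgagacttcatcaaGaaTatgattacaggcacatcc

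The Eef1a1 stretch also occurs in transcripts of 2 pseudogenes, and 57.9% of the 50-base words of the longest Eef1a1 transcript occur in transcripts of other loci. Its level is therefore uncertain, since the counting could split or drop such fragments. The study's methods keep unique hits only for its chromatin RNA libraries, and how multiple hits were handled in these messenger RNA libraries is not given in the sources used here.

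The nucleotide exchange subunits of eEF1B were unequal. Eef1b2, the catalytic beta subunit, had 1256 and 467 exonic TPM (862 ± 558, SD, n = 2), Eef1g, the scaffolding gamma subunit, had 547 and 337 (442 ± 148), and Eef1d, the delta subunit, had 31.7 and 10.99 (21.3 ± 14.6). Eef1d was below Eef1g in both replicates with no overlap, while the ranges of Eef1b2 and Eef1g overlapped. Of the words of Eef1g, 64.3% occur at other loci, all of them in pseudogenes. Eef1e1, which encodes a member of the multi-tRNA synthetase complex and no elongation factor, had 225 and 247 exonic TPM, between Eef1g and Eef1d in both replicates.

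The translocase gene Eef2 (chromosome 10) was lower than Eef1a1, Eef1b2, Eef1g and Eif5a in both replicates, with 84.3 and 28.2 exonic TPM (56.3 ± 39.7, SD, n = 2), and its GC content of 57.0% was among the highest of the set. Its kinase Eef2k, which stops elongation by phosphorylating eEF2, had 4.21 and 2.91 TPM. The hypusine-containing factor eIF5A was carried mostly by Eif5a, at 272 and 158 TPM (215 ± 80.5), with its paralogue Eif5a2 at 56.4 and 79.4 TPM (67.9 ± 16.2). Per exonic length Eif5a was higher than Eif5a2 in each library, and the gap narrowed from 2.27 to 1.00 on the log2 scale of exonic TPM because Eif5a was lower and Eif5a2 higher in replicate 2. Without a length the mean gap was 0.55, and the order turned in replicate 2, with 2276 counts for Eif5a and 2412 for Eif5a2.

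The subunits of eIF2 were measured alike in both replicates and at very different levels. Eif2s1, the alpha subunit that carries the regulatory phosphorylation site, had 1483 and 1391 exonic TPM (1437 ± 64.9, SD, n = 2). The beta subunit gene Eif2s2 had 972 and 909 (941 ± 44.4), and the X-linked gamma subunit gene Eif2s3x, which encodes the GTP-binding and tRNA-binding subunit, had 48.9 and 45.2 (47.0 ± 2.56). The levels of the 3 genes were apart in both replicates, and Eif2s1 stood 30.3 and 30.7 times above Eif2s3x. Words shared with pseudogenes made up 36.2% of Eif2s3x and 27.8% of Eif2s2, and the part of such sharing in the gap was not tested. The other carriers of initiator tRNA also differed. Eif2a, which acts in non-canonical initiation, had 541 and 449 TPM, and Eif2d, which acts in re-initiation and recycling, had 52.2 and 32.8 TPM.

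All 5 subunit genes of eIF2B, the exchange factor for eIF2, were expressed below the alpha and beta subunits of their substrate. The catalytic epsilon subunit gene Eif2b5 was highest with 105 and 37.8 exonic TPM (71.5 ± 47.6, SD, n = 2), then came Eif2b3 with 45.7 and 26.7, Eif2b1 with 32.5 and 14.7, Eif2b2 with 15.7 and 9.90, and Eif2b4 with 6.23 and 3.04. The ranges of neighbours overlapped in 3 of the 4 steps, and only Eif2b2 and Eif2b4 were apart. The order of the 5 genes was the same in both libraries.

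Each of the 4 eIF2 kinases was detected, at a median of 21.2 exonic TPM. Eif2ak2 (PKR, activated by double-stranded RNA) had 63.9 and 68.4 TPM, Eif2ak3 (PERK, activated by unfolded protein in the endoplasmic reticulum) had 26.1 and 24.2, Eif2ak4 (GCN2, activated by amino acid shortage) had 19.3 and 15.0, and Eif2ak1 (HRI, activated by heme shortage) had 17.3 and 12.47. Eif2ak2 was the highest of the 4 kinase genes in both libraries, and the replicate ranges of Eif2ak4 and Eif2ak1 overlapped.

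The scaffold eIF3, which joins the small ribosomal subunit to the messenger RNA, has 14 genes in the set, 12 of them with counts. Eif3e had 1772 and 1665 exonic TPM (1719 ± 75.9, SD, n = 2), Eif3m had 937 and 1040 (988 ± 72.9), and Eif3a, the largest core subunit, had 408 and 432 (420 ± 16.6). These 3 genes were apart from each other and from Eif3h, with 300 and 204 TPM (252 ± 67.8). Eif3l had 238 and 95.9 TPM and Eif3c had 196 and 95.2. The last 6 genes lay between 22.2 TPM in the mean for Eif3b, another core subunit, and 51.0 for Eif3f, and neighbours among them overlapped. Eif3i had 78.6 and 18.4 TPM, Eif3g had 59.2 and 13.2, Eif3d, the cap-binding subunit, had 41.3 and 12.6, Eif3k had 33.4 and 14.5, and Eif3b had 31.5 and 12.98. All 6 were lower in replicate 2 than in replicate 1.

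On the exonic TPM scale, Eif3e stood 56.3 times above the lowest counted eIF3 gene of replicate 1, Eif3b, and 132 times above the lowest of replicate 2, Eif3d, so the spread among eIF3 genes was wider in replicate 2. For mean levels the ratio was 77.3, and it was 32.7 with the span length and 18.9 without genes that share at least 20% of their words with other loci, which leaves out Eif3m (37.3%), Eif3h (26.2%) and Eif3e (22.0%). Across the 12 counted eIF3 genes, mean exonic TPM and the GC content of the longest transcript had a Spearman's rho of -0.92, and over the 56 translation factor genes with 50 or more counts per library it was -0.54. Over 9736 genes filtered in the same way, it was -0.40. These are descriptions across genes that share the same libraries and are not independent. The eIF3j subunit was not measured. Eif3j1 and Eif3j2 are entered on the same strand at nearly the same place of chromosome 2, so a fragment there falls in both entries. The command in the file header sets no option to count such fragments, and the 0 counts of these genes say nothing of expression.

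**Figure D2:**
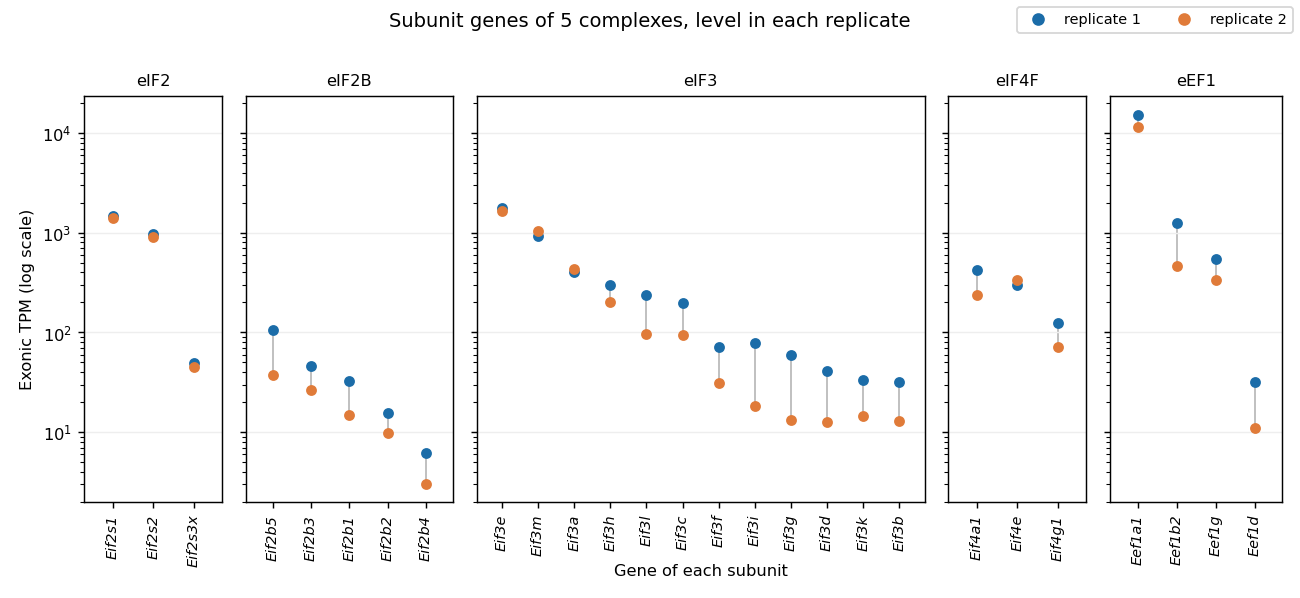
Exonic TPM (log axis) in replicate 1 (blue) and replicate 2 (orange) of the genes with counts in eIF2, eIF2B, eIF3, eIF4F and eEF1, ordered by mean level within each complex. The 3 highest eIF3 genes were nearly level between replicates while the lower ones sat below in replicate 2, and Eef1a1 stood 481 and 1040 times above Eef1d.

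Within eIF4F the level of the cap-binding Eif4e was 300 and 336 exonic TPM (318 ± 25.4, SD, n = 2). The scaffold gene Eif4g1 had 124 and 71.3 TPM (97.8 ± 37.5), and the helicase gene Eif4a1 had 425 and 238 TPM (332 ± 132). Eif4e and Eif4a1 overlapped, and both were above Eif4g1 in each replicate. Without a length, Eif4a1 and Eif4g1 had mean CPM of 182 and 183, so the order of these genes rests on the length used. The highest and lowest of these 3 genes were 3.42 and 4.71 times apart, with Eif4a1 taken as the helicase.

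The paralogue Eif4a2 was far more abundant than Eif4a1. It had 4010 and 4126 exonic TPM (4068 ± 82.5, SD, n = 2) and ranked 9 among all genes, and it exceeded Eif4a1 by 3.24 and 4.12 on the log2 scale (3.68 ± 0.62). Eif4a1 (chromosome 11, 69666935 to 69672423) and Eif4a2 (chromosome 16) encode near-identical DEAD-box helicases that can both enter eIF4F. Each span also holds snoRNA genes, 3 in Eif4a1 and 5 in Eif4a2. Of the words of Eif4a1, 65.3% occur in pseudogenes, the highest share in the set, and what part this had in the gap was not tested. The stretch of 60 coding bases from exon 6 of each gene (GENCODE M21, GRCm38) was picked as the one that differs least. Only single-exon stretches whose Eif4a1 words occur in pseudogenes were searched, so it is not a typical part of the pair. Eif4a1 lies on the minus strand at chr11:69668667-69668726 and Eif4a2 on the plus strand at chr16:23110261-23110320. Capitals mark the 5 bases that differ.
Eif4a1: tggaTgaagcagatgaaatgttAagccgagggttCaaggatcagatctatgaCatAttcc
Eif4a2: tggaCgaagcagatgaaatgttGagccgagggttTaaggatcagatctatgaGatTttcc

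The Eif4a1 stretch is also found in transcripts of 1 pseudogene, Eif4a-ps4. The third DEAD-box gene of the name, Eif4a3, encodes a core protein of the exon junction complex rather than an initiation factor, and it had 78.4 and 26.2 exonic TPM. The helicase cofactors were abundant. Eif4b had 577 and 470 TPM (524 ± 75.3, SD, n = 2) and Eif4h had 204 and 109 TPM (156 ± 67.0).

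The scaffold relative Eif4g2 (DAP5), which lacks the eIF4E-binding part and serves cap-independent initiation, was the highest eIF4G gene with 408 and 497 exonic TPM (453 ± 62.5, SD, n = 2). It exceeded Eif4g1 by 1.72 and 2.80 on the log2 scale. Eif4g3 was low, with 7.42 and 6.80 TPM, which is 3.73 ± 0.48 below Eif4g1 on the log2 scale (SD, n = 2). With the span length it was 6.39 below, and the Eif4g3 span measures 213625 bases against 10117 bases of exons. Of the cap-binding family, Eif4e2, a homologue tied to translational repression, had 30.7 and 15.3 TPM and Eif4e3 had 5.77 and 5.26. Eif4e exceeded Eif4e2 by 3.87 ± 0.83 on the log2 scale (SD, n = 2), and Eif4e2 exceeded Eif4e3 by 1.98 ± 0.62. With the longest transcript the first gap was 2.80. The second gap was wider in every other scale run, 4.20 with the span length, 3.09 with the longest transcript and 3.55 with CPM. Eif4e1b, known from oocytes, had no count.

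The eIF4E-binding proteins hold eIF4E away from eIF4G until mTOR phosphorylates them. Eif4ebp1 had 103 and 23.6 exonic TPM (63.4 ± 56.3, SD, n = 2), Eif4ebp2 had 11.6 and 8.50 (10.1 ± 2.21), and Eif4ebp3 had 9.30 and 6.005 (7.65 ± 2.33). The ranges of Eif4ebp2 and Eif4ebp3 overlapped, and Eif4ebp1 was above both in each replicate. On the log2 scale Eif4ebp1 exceeded Eif4ebp2 by 2.31 ± 1.19 and Eif4ebp2 exceeded Eif4ebp3 by 0.41 ± 0.13 (SD, n = 2), and without a length (CPM) these gaps were 0.78 and 3.37. In replicate 2 the counts were 285 for Eif4ebp1 and 297 for Eif4ebp2, so there the order of that pair rests on the length used. Eif4enif1, which encodes the eIF4E transporter of processing bodies, had 95.8 and 92.5 TPM.

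Among the eIF1 and eIF1A genes, which act in start codon choice, the eIF1A pair was the most abundant. Eif1a had 633 and 715 exonic TPM (674 ± 58.1, SD, n = 2), and its X-linked homologue Eif1ax had 543 and 571 (557 ± 19.4). Their ranges did not overlap, but the difference was only 0.27 ± 0.07 on the log2 scale (SD, n = 2), and it was -0.038 without a length (CPM), so the order of this pair rests on the length used. Eif1, which guards start codon choice, had 152 and 76.5 TPM, and Eif1b had 72.8 and 46.5, which is 0.89 ± 0.24 lower on the log2 scale. Eif1ad, a domain relative that is not an initiation factor, had 26.1 and 9.32 TPM. Eif5, which makes eIF2 hydrolyse GTP, reached 1240 and 1436 TPM (1338 ± 138) and was among the 5 highest of the set. The subunit-joining GTPase gene Eif5b had 42.7 and 42.9 TPM, and Eif6, which keeps the large subunit apart, had 13.6 and 6.998.

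**Figure D3:**
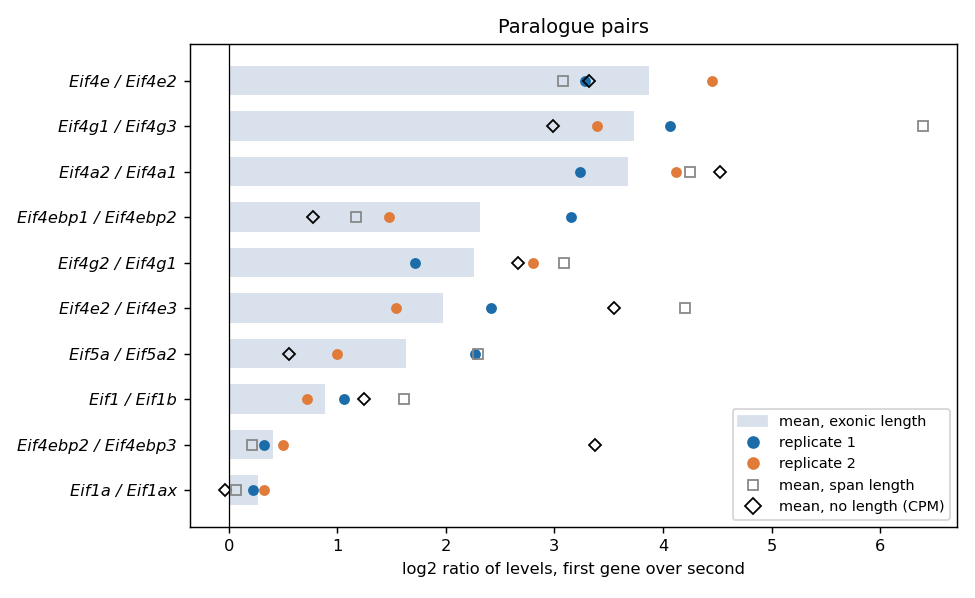
Log2 ratio of levels for the 10 paralogue or homologue pairs in which both genes had more than 3 counts. Bars are means of exonic TPM ratios with replicate 1 in blue and replicate 2 in orange; open squares use the span length of the table and open diamonds use CPM. All 10 bars and replicate points lie above 0, and the single mark below 0 is the CPM value of Eif1a over Eif1ax, at -0.038.

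The replicates ranked the translation factors alike, with a Spearman's rho of 0.96 for exonic TPM over 56 genes, but their levels differed by more than sampling noise. Each gene's pair of counts was set against the library totals in an exact binomial test (two-sided), with Benjamini-Hochberg adjustment over the 14536 genes that had 10 or more counts. Of the 58 translation factor genes tested, 51 passed a threshold of 0.05. Of all genes tested, 60.8% passed. Lower in replicate 2 were 45 of the 58 genes (background 45.7%) and higher were 6 (background 15.1%). The tested translation factors were also counted more deeply, with a median of 2542.5 counts over both libraries against 486 for all genes tested, and small differences pass more often at greater depth. The median log2 ratio of CPM (replicate 2 over replicate 1) was -0.69 over the 56 genes that had 50 or more counts per library and -0.17 over 9736 genes of the same filter.

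Scaling moved the direction of some genes. TMM factors raised each log2 ratio by 0.22 and DESeq2 size factors by 0.31, which took the median of all genes to 0.05 and 0.14. With TMM, 52 genes passed, 37 lower and 15 higher in replicate 2, where 57.7% of all genes passed and 30.8% were lower. With DESeq2 size factors 49 passed, 33 lower and 16 higher, where 57.8% of all genes passed and 26.1% were lower. The 8 genes that passed as lower and turned positive under either scaling were Eif2s1, Eif2s2, Eif2s3x, Eif2ak3, Eif3e, Eif4a2, Eif4enif1 and Eif4g3. Their direction rests on the scaling used and is not settled here.

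The largest differences fell on eIF3, a binding protein of eIF4E and the translocase. Eif3g had 490 and 88 counts, a log2 ratio of -2.24 (95% exact counting interval -2.60 to -1.92, exact binomial adjusted p = 2e-54), Eif4ebp1 had 1549 and 285 counts (-2.21, -2.40 to -2.03, adjusted p = 1.8e-167), and Eif3i had 663 and 125 counts (-2.18, -2.47 to -1.90, adjusted p = 1.1e-70). Eif3d followed with -1.79 and Eef2 with -1.67. All 5 kept their sign in each scaling. Relative to the trend with GC content, however, Eif3d had -1.11 and Eef2 had -0.91, both behind Eef1b2 at -1.37 and Eif1ad at -1.14. In the other direction the ratios were small. Eif5a2 had 2132 and 2412 counts and a log2 ratio of 0.40 (0.32 to 0.49, adjusted p = 3e-20), and Eif4g2, Eif5, Eif1a and Eif4e had 0.19, 0.12, 0.09 and 0.07. The remaining gene that passed as higher was Eif3m, at 0.06. Against the GC trend described below, Eif5, Eif1a and Eif4e passed as lower, with -0.04, -0.17 and -0.15, and Eif5a2 did not pass, so only Eif4g2 and Eif3m were higher in both readings.

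By factor, and beside a background of 45.7% of all genes tested, all 5 eIF2B genes passed as lower in replicate 2, with a median log2 ratio of -1.11, as did 10 of the 12 tested eIF3 genes (Eif3e, whose sign turned with the scaling, among them), with a median of -1.28. Against the GC trend, Eif2b2 and Eif2b4 did not pass, with -0.05 and -0.36. Among the eEF1 genes 4 of 5 passed as lower, led by Eef1d at -1.61 and Eef1b2 at -1.52. Eef1e1, Eif3a, Eif2ak2, Eif1ax, Eif4e3, Eif5b and Eif4ebp3 did not pass. Their log2 ratios lay between -0.71 for Eif4ebp3, which had 52 and 27 counts, and 0.05 for Eef1e1. With TMM factors, Eif1ax, Eif3a, Eef1e1, Eif2ak2 and Eif5b passed as higher in replicate 2. Their exact binomial adjusted p ran from 1.2e-43 for Eif1ax to 0.0022 for Eif5b. Against the GC trend, Eif1ax and Eif5b passed as lower, with -0.28 and -0.11. Eif4e3 and Eif4ebp3 passed in neither reading. None of these differences is between conditions, and stem cell markers differed between the same libraries too. Of 9 such markers tested 8 were lower in replicate 2 and 1, Zfp42, was higher, with a median log2 ratio of -0.45, but Nanog and Klf4 turn positive with the TMM shift and Tdgf1 also with the DESeq2 shift. Dppa5a, with 627 and 79.7 exonic TPM (log2 ratio of CPM -3.06), and Pou5f1, with 110 and 17.3 (-2.76), differed by more than any translation factor with at least 10 counts. Their part in the result was not tested.

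The ratio between replicates moved with GC content. Over the 56 genes, its Spearman's rho with the GC content of the longest transcript was -0.73, against -0.67 over 9736 genes. The 17 genes under 45% GC had a median log2 ratio of -0.01, the 21 genes of 45 to 52% had -0.86, and the 18 genes of 52% and over had -1.17. The same bins over all genes gave 0.16, -0.22 and -0.63, so that the translation factors lay below all genes in each bin. Abundance moved along with GC content too. The median exonic TPM in the 3 bins was 495, 51.0 and 45.5 for translation factors and 70.6, 34.8 and 14.0 for all genes.

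After the trend of all genes with GC content was taken as the expected ratio, 44 of the 58 genes passed, 38 lower and 6 higher in replicate 2, where 44.6% of all genes passed and 21.7% were lower. The median of the 56 genes was then -0.27 and that of all genes 0.04. The ratio also followed transcript length among the translation factors, with a rho of 0.48, against 0.25 over all genes. With length added to the trend, a choice made after seeing the data, 43 genes passed, 38 of them lower, where 43.9% of all genes passed and 21.9% were lower, and the median was -0.26 against 0.03. Relative to the GC trend, the log2 ratio was -1.92 for Eif4ebp1, -1.58 for Eif3i, -1.52 for Eif3g and -1.37 for Eef1b2. The 6 genes that passed as higher than the trend were Eif4g3 at 0.31, Eif2ak3 at 0.30, Eif4enif1 at 0.29, Eif4g2 at 0.13, Eif3m at 0.08 and Eif4b at 0.05. The part of GC content and of transcript length in the difference between libraries was not tested.

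**Figure D4:**
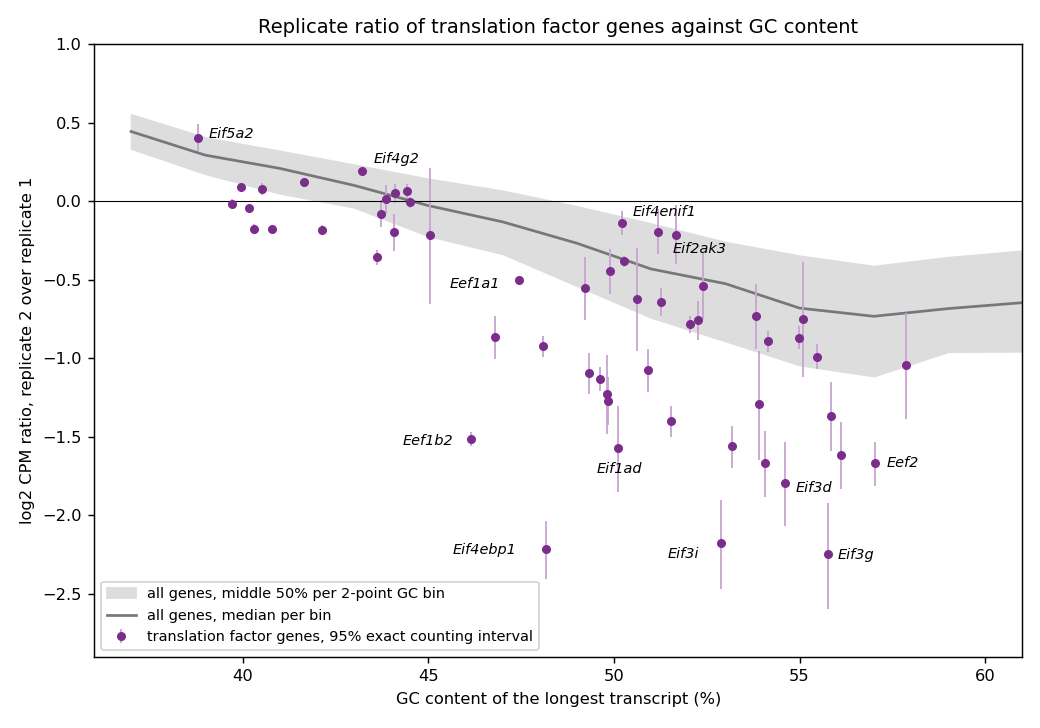
Log2 ratio of CPM, replicate 2 over replicate 1, against GC content (%) of the longest transcript for the 56 translation factor genes of 50 or more counts per library (purple, bars are 95% exact counting intervals), over the median (grey line) and middle 50% (grey band) of all genes in GC bins. Translation factors descend with GC content, from 0.40 for Eif5a2 to -2.24 for Eif3g, and the 21 genes of 45 to 52% GC had a median of -0.86 where all genes had -0.22.

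The libraries served to rank genes by their level before Xist induction, and the study sorts genes into low, medium and high groups of equal size. The groups below were built here and not taken from the study. Among the 531 X-linked genes of at least 1 exonic TPM, the bounds of the medium group were 13.8 and 83.7 TPM. Eif1ax (557 TPM) ranked 34 and fell in the high group, and Eif2s3x (47.0 TPM) ranked 243 and fell in the medium group. Each gene stayed in its group in replicate 1 alone (ranks 29 and 242 of 540), in replicate 2 alone (ranks 35 and 242 of 524), with the span length (ranks 14 and 229 of 532) and with CPM (ranks 21 and 218 of 509).

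Genes that work with these factors but carry other names were read from a list of 38, all of them in the table. Their median was 58.2 exonic TPM, close to that of the translation factors, and 35 reached 1 TPM. Of 37 tested, 24 were lower in replicate 2 and 7 were higher, beside 45.7% and 15.1% of all genes. The release and recycling list was the most abundant. The recycling ATPase gene Abce1 had 1663 and 1855 TPM, the release factor gene Etf1 had 1095 and 1288, and its GTPase partner Gspt1 had 315 and 329. The log2 ratios of CPM of these 3 genes were 0.07, 0.15 and -0.03, while the retrogene Gspt2, the last of the list, had 66.0 and 42.1 TPM and a log2 ratio of -0.74 (exact binomial adjusted p = 1.2e-25). Pabpc1, the poly(A)-binding protein that contacts eIF4G, had 1402 and 1353 TPM. Atf4, the transcription factor whose translation rises when eIF2 is phosphorylated, had 174 and 44.0 TPM and the lowest log2 ratio of the list, -2.07 (exact binomial adjusted p = 8.2e-223). All 4 stress response genes were lower in replicate 2, with a median log2 ratio of -1.07, but Ppp1r15b, at -0.29, turns positive with the DESeq2 shift. Against the GC trend Atf4 passed the exact test (adjusted p = 1.8e-96), and Ppp1r15a, Ppp1r15b and Ddit3 did not. The enzymes that make hypusine on eIF5A were low, with 20.4 and 8.57 TPM for Dhps and 7 and 3 counts for Dohh. The mitochondrial factor list had a median of 27.7 TPM, from 1.42 for Tufm to 203 for Guf1.

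Messages of ribosomal proteins and of several translation factors are known to begin with a C and a run of pyrimidines, the 5′ terminal oligopyrimidine (TOP) tract that links their translation to mTOR through LARP1. RefSeq start windows (GRCm38.p6) were found for 48 of the 62 genes at 63 annotated starts. The motif searched was a C followed by at least 4 bases that are C or T, on the transcribed strand only, beginning within 5 bases of the annotated start. It was found at 15 of the 63 starts (23.8%) and at 6027 of 32851 starts of all genes (18.3%). A tract of at least 8 bases was found at 6 (9.52%) against 4.37% of all starts. These 6 windows are printed because they hold the longest matches, and those of the helicase pair, where no match was found, follow for comparison. Each window runs from 20 bases before the annotated start to 10 bases from it, 5′ to 3′. Capitals mark the longest matching tract as far as it lies inside the window, and shorter matches, as in Eif3l, are left unmarked.
Eif3f (chr7:108934395-108934424, plus strand): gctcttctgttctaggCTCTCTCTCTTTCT
Eef1a1 (chr9:78481715-78481744, minus strand): cgtgtgctggctccgCCCTCTTCCCgaggg
Eif2b2 (chr12:85219461-85219490, plus strand): ttatgtttcaccgagcggaagttgaCCTCT
Eif3l (chr15:79075203-79075232, plus strand): agcaggcgcggagttcttcttccgCTCTCT
Eif2b5 (chr16:20498797-20498826, plus strand): gcattccttcctctttCTCTCCCTgcaact
Eif2s3x (chrX:94212642-94212671, minus strand): ggcggctgccgagcattttCCTTTTCTCTC
Eif4a1 (chr11:69672414-69672443, minus strand): cgcctacaaagtaacgtcacgtcgagttgc
Eif4a2 (chr16:23107448-23107477, plus strand): cagggccgcggaaaccccgtaggagcaggg

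The genes with a long tract ranged from 12.8 exonic TPM for Eif2b2 to 13335 for Eef1a1, with Eif2s3x at 47.0, Eif3f at 51.0, Eif2b5 at 71.5 and Eif3l at 167. A match is only a match of letters near an annotated start, and these libraries did not measure start sites or translation.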

How the data were processed

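Polyadenylated RNA from 2 replicates of uninduced iXist-ChrX-Dom mESCs was isolated with oligo(dT) beads and made into stranded libraries. Column names were matched to samples without a letter b that the sample descriptions carry. The counts were deposited by the authors as raw fragments per gene, made with featureCounts 1.5.2 (paired, reverse-stranded, over whole transcript spans) on an mm10 annotation of long RNAs. The submitters' processing notes also name Bowtie2 2.3.2 and STAR 2.4.2a. The alignment of these libraries is not given in the sources used here. The length column deposited by the authors is the union of transcript spans, introns included, and was used as an alternative.

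The genes, lists and tests were chosen with earlier results of these data known. TPM used merged exons from GENCODE M21 (basic set, GRCm38), which matched 22137 of 22556 genes. CPM used library totals. Genes were tested by a two-sided exact binomial test (scipy 1.17.1) with Benjamini-Hochberg adjustment. In a simulation it recovered 94.1% of 102 genes changed 2-fold and 100.0% of 98 genes changed 4-fold, among 14508 genes tested. The simulated counts carried sampling error only, with no GC trend and no further spread between libraries. There 0.063% of 14308 unchanged genes passed, whereas 60.8% of genes passed between the real libraries. Log2 ratios added 0.5 counts. The GC trend was a polynomial of degree 3 over genes with 50 or more counts per library. TMM came from edgeR 4.0.16 and size factors from DESeq2 1.42.0 (R 4.3.3). Shared sequence was the share of 50-base words of the longest transcript found in transcripts of other loci, and 12 genes shared at least 20%. Genes named with values are all subunits of 5 complexes, all paralogue pairs, the 10 highest, those with 10 or fewer counts in each replicate, the 5 largest replicate differences in each direction, the X-linked genes, the kinases and the relatives that are no translation factors. Eif4b, Eif4h, Eif5b, Eif6, Eif2a and Eif2d fall outside this rule and were chosen after their values were seen. A count of 0 allows up to 3 counts. With 1 group no contrast between conditions was fitted.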

Additional observations from a re-analysis of the deposited data

How the results depend on the processing

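No paired analysis was possible because only 1 group was sequenced. Of 119 alternatives over 22 values, 87 moved the value by no more than the spread between replicates or kept the call, 31 moved it further and 1 reversed it. The reversed value is the log2 ratio of Eif1a over Eif1ax, -0.038 with CPM. The share of counts was 1.74% without Eef1a1 and 1.48% without genes that share at least 20% of their words with other loci, and it ran from 2.24 to 2.71% when a replicate was left out. The median log2 ratio between replicates was -0.46 with TMM, -0.27 with the GC trend removed and -0.26 with the GC and length trend removed, the last chosen after seeing the data. The ratio of the highest to the lowest subunit was 26.8 with span length, 29.9 with the longest transcript and 27.9 with CPM for eIF2, and 8.71 with span length for eIF2B. It was 1449 for eEF1 with span length. Without genes that share at least 20% of their words, it was 18.9 for eIF3 and 40.4 for eEF1. For eEF1 that filter leaves out Eef1a1 (57.9%) and Eef1g (64.3%), so 40.4 is the ratio of Eef1b2 to Eef1d. With a replicate left out, the ratio of highest to lowest ran from 30.3 to 30.7 for eIF2, 12.4 to 16.9 for eIF2B, 56.3 to 132 for eIF3, 3.42 to 4.71 for eIF4F and 481 to 1040 for eEF1. For the 10 pairs, 16 of 50 alternatives moved the log2 ratio by more than its SD and 33 did not. The 33 include every run with a replicate left out. At n = 2 such a run cannot move a mean by more than its SD. The counts of 33 and 87 therefore hold runs whose outcome was fixed in advance, and they overstate how stable the values were. The cause of these moves was not tested. With 2 libraries, each SD rests on a single difference.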
